A study of Homo sapiens with 8 samples.

Results

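A list of 43 androgen-responsive genes, fixed by symbol and leaving out the kallikreins, was followed through the 3 time points of an RNA sequencing experiment. All 43 symbols were among the 36474 genes counted, and 42 had at least 10 counts in 2 or more libraries and entered the test of 21071 genes. STEAP4, a metalloreductase of the cell surface, was the member left out, with 0 to 7 counts per library. The lowest member kept was SGK1, with 17 to 33 counts per library.

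The cells were LNCaP, an established line grown from a prostate carcinoma metastasis that responds to androgen. LNCaP cells in culture wells were starved for 6 to 12 h in medium lacking serum and calcium and then given 100 ng/mL recombinant human ASPN (asporin, a small proteoglycan secreted by fibroblasts of the tumour stroma). RNA was taken at 0 h (2 libraries), 12 h (3 libraries) and 24 h (3 libraries), and the question was how transcription in these cells changed with ASPN. Cells kept for 12 or 24 h without ASPN were not analysed here, so ASPN and time in the starvation medium cannot be told apart. The medium lacked serum, and with it the hormones serum carries, in every group.

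Androgens such as testosterone and dihydrotestosterone are steroid hormones that enter cells and change transcription of their target genes. In prostate epithelium these targets include secreted proteases, enzymes that make lipids and glycans, proteins of the secretory pathway, kinases, and genes such as FKBP5 that feed back on the response. Collections of androgen-responsive genes are usually assembled from cells given androgen, so membership says that a gene can respond to the hormone and not that androgen acted on it here.

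Library totals ran from 73406825 to 96962135 counts, and the 42 tested members took 0.366 to 0.379% of them. Levels are given in CPM, the counts scaled to a common library size after TMM correction for library composition. A gene with 0 counts could still lie at 0.0309 to 0.0409 CPM, depending on the library (counting error only). Mitochondrial genes took 6.20 to 7.32% of counts. The 8 epithelial markers read here were all present, and their summed level was 4053 to 4139 CPM at 0 h, 4533 to 4550 CPM at 12 h and 4515 to 4714 CPM at 24 h. Summed fibroblast markers were at 22.2 to 22.7 CPM at 0 h, 21.6 to 23.8 CPM at 12 h and 21.2 to 21.9 CPM at 24 h, nearly all COL1A1, with DCN at 0 to 0.0681 CPM. Summed leukocyte and endothelial markers were at 15.0 to 17.5, 13.5 to 15.2 and 11.3 to 13.4 CPM at the 3 times, nearly all VWF, with CD3E at 0 to 0.0103 CPM and PTPRC at 0 to 0.0724 CPM. Whether these shifts bear on the results was not tested.

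Androgen response elements in DNA hold pairs of the hexamer TGTTCT in inverted orientation, and the promoter windows of the members were searched for it as a description. RefSeq windows on GRCh38.p14, from 250 bases before to 50 bases after the transcription start, were found for 35 members, and for ADAMTS1, ELL2, PLPP1, PTK2B, SORD, TPD52, ZBTB10 and ZMIZ1 there was none. TGTTCT on either strand (AGAACA when read on the gene's strand) occurred in 7 of 35 member windows (20%) and in 5192 of 35116 windows of all genes (14.8%). An inverted pair of these hexamers 3 bases apart, with at most 1 mismatch in all, occurred in 0 of the 35 windows and in 58 of all 35116 (0.165%). The stretches before the start that hold the hexamer are shown because they belong to members with different courses, RPS6KA3 and STK39 being lower at 24 h while PMEPA1, TSC22D1 and LIFR passed no test. Each is written 5′ to 3′ on the gene's strand, here the minus strand throughout, with the hexamer in capitals.
RPS6KA3, chrX:20266952-20267011: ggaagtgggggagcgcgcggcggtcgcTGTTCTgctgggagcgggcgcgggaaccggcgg
STK39, chr2:168247675-168247734: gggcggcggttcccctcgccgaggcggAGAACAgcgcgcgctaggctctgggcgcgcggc
PMEPA1, chr20:57710774-57710827: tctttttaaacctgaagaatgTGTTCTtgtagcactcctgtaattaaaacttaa
TSC22D1, chr13:44474403-44474462: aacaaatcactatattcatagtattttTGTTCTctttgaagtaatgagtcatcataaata
LIFR, chr5:38557468-38557502: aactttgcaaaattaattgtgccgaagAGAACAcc
PMEPA1 shares 5.98% of its exon bases with the antisense RNA NKILA, and LIFR shares 5.17% with LIFR-AS1. In FKBP5 and SGK1, and at a second place in PMEPA1, the hexamer lay after the start. A match is a run of letters in a window and was not measured as a bound site.

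The 42 tested members moved in both directions, and no change that passed reached 1.5-fold. After 12 h, 3 members rose and 9 fell (adjusted p of 0.05 or less in the quasi-likelihood test of edgeR), and after 24 h, 6 rose and 8 fell. Between 12 h and 24 h, 2 rose and 3 fell. Altogether 18 members passed in at least 1 of the 3 comparisons and 24 passed in none. The widest fall that passed was that of TNFAIP8, which encodes an inhibitor of apoptosis and stood at 0.695 of its 0 h level at 24 h. The widest rise against 0 h that passed was that of ZMIZ1, which encodes a transcriptional coactivator and stood 1.29-fold higher at both times. Without 0 h replicate 1, 1 member was higher and 1 lower at 12 h, and 3 were higher and 6 lower at 24 h. Between 12 h and 24 h, leaving out a library gave 0 to 2 higher (0 without 12 h replicate 1, 24 h replicate 1 or 24 h replicate 2) and 1 to 4 lower (1 without 24 h replicate 1). A level in bulk RNA cannot separate fewer cells of a kind from less RNA per cell.

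Against all genes tested, the shares of members were as follows. At 12 h the rise took in 7.14% of members and 4.85% of all genes, and the fall took in 21.4% of members and 6.75% of all genes. At 24 h it was 14.3% of members higher against 7.82% of all genes, and 19.0% lower against 8.49%. From 12 h to 24 h it was 4.76% of members higher against 1.12%, and 7.14% lower against 1.61%. The members were mostly well counted, however, and well-counted genes pass more often. Among the 36 members with a mean of at least 1000 counts, 30.6%, 38.9% and 11.1% passed in the 3 comparisons, and among all 9104 genes counted that well the shares were 21.8%, 28.3% and 5.16%. The median absolute log2 change of the members was 0.128 at 12 h, 0.113 at 24 h and 0.06 between the times. Over all genes tested it was 0.155, 0.17 and 0.103, and over the well-counted genes 0.093, 0.101 and 0.056. With its sign, the median log2 change of the members was -0.031 at 12 h, -0.024 at 24 h and 0.016 between the times. Over all genes tested it was -0.001, -0.003 and 0.003. Without 0 h replicate 1 the members' medians turned to 0.006 at 12 h and 0.043 at 24 h, and without 12 h replicate 1 the median between the times turned to -0.013. No member passed the adjusted p together with a change of 1.5-fold in edgeR or in DESeq2, while 1.05%, 2.45% and 0.18% of all genes did so in edgeR. Without the adjustment, 18, 19 and 11 members had a p under 0.05, and of these only HPGD, with 24 to 72 counts per library, also differed by 1.5-fold, between 12 h and 24 h. Both comparisons with 0 h use the same 2 libraries, so an unusual 0 h level enters both.

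**Figure D1:**
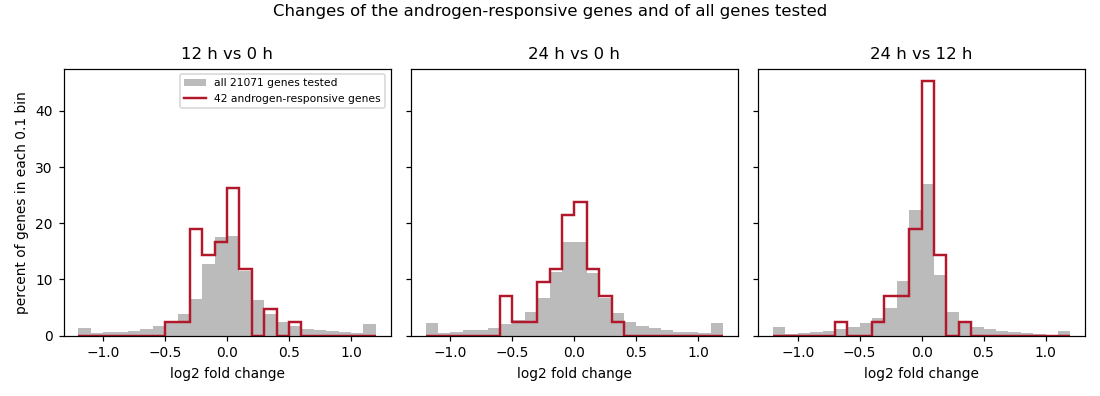
Distribution of log2 fold changes (x axis, bins of 0.1, values beyond the axis placed in the end bins) as the percent of genes in each bin (y axis) for the 3 comparisons. Grey areas stand for all 21071 genes tested and red lines for the 42 androgen-responsive genes, whose changes ran from -0.41 to 0.55 at 12 h, from -0.56 to 0.37 at 24 h and from -0.68 to 0.36 between the times.

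**Figure D2:**
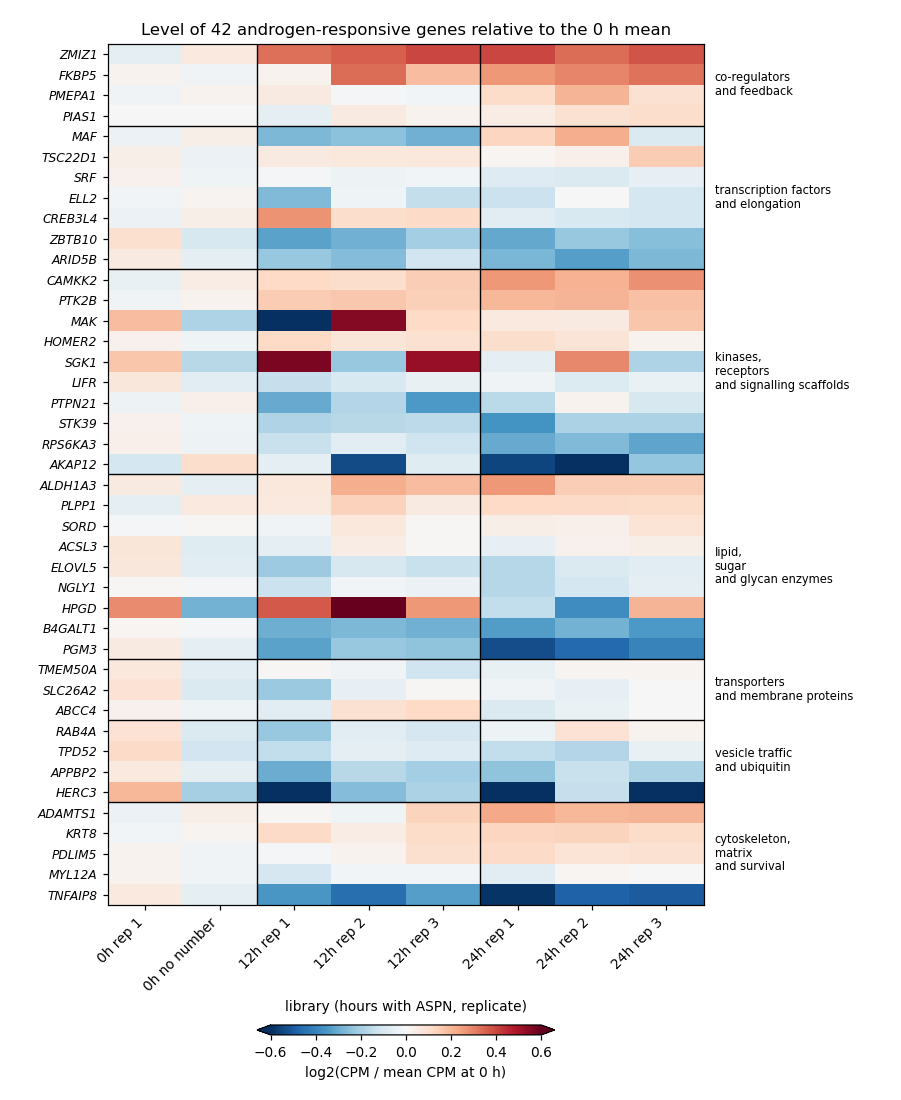
Level of each of the 42 tested members (rows, in role groups) in each of the 8 libraries (columns), as log2 of the CPM over the mean CPM at 0 h, with colours saturating at -0.6 and 0.6. ZMIZ1 is red in all 6 libraries taken with ASPN, B4GALT1, PGM3 and TNFAIP8 are blue in all 6, and the patchy rows MAK, SGK1, HPGD and HERC3 are those with the fewest counts.

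Of the 4 members that encode transcriptional co-regulators or proteins that feed back on the hormone response, 1 rose at 12 h and 2 at 24 h, and the other 2 passed no test. ZMIZ1 (ENSG00000108175.18, chromosome 10, 79068966 to 79316519 on GRCh38) encodes a PIAS-like transcriptional coactivator. It was at 72.1 and 77.9 CPM in the 0 h libraries, at 94.3, 96.2 and 99.0 CPM at 12 h, and at 98.9, 94.5 and 97.4 CPM at 24 h. All 6 libraries with ASPN lay above both 0 h libraries, and the 12 h and 24 h ranges overlapped. The log2 change was 0.36 ± 0.0496 (SE) at 12 h (adjusted p = 5.18e-06, edgeR) and 0.37 at 24 h (adjusted p = 1.44e-06), and 0.006 between the times (adjusted p = 0.978). ZMIZ1 thus reached its level by 12 h, and both calls held in all 13 other settings tried.

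FKBP5 (ENSG00000096060.15, chromosome 6, 35573585 to 35728583) encodes FKBP51, a co-chaperone that works with HSP90 and a widely used readout of steroid hormone action. Its levels were 46.2 and 44.9 CPM at 0 h, 46.2, 57.4 and 51.7 CPM at 12 h, and 54.6, 55.7 and 57.0 CPM at 24 h. The first 12 h library was level with 0 h while the second was as high as any 24 h library, so the 12 h group spread widest (51.8 ± 5.60 CPM, SD, n = 3). All 24 h libraries lay above both 0 h libraries. At 24 h FKBP5 rose 1.22-fold (log2 0.29 ± 0.0634, adjusted p = 0.00111, edgeR). At 12 h its log2 change was 0.19 (adjusted p = 0.0533), which passed with RLE scaling (0.0456), without the low-count filter (0.0137), in DESeq2 (0.0477) and without 12 h replicate 1 (adjusted p = 0.000819, and 0.000819 to 0.644 over the 13 settings). Between 12 h and 24 h it was 0.11 (adjusted p = 0.413), which passed without 12 h replicate 2 (adjusted p = 0.0481, and 0.0481 to 0.911 over the settings).

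PMEPA1 encodes a membrane protein that dampens TGF-β signalling. It was at 39.2 and 40.5 CPM at 0 h, 41.3, 39.6 and 39.5 CPM at 12 h, and 43.0, 45.9 and 42.5 CPM at 24 h. The 24 h libraries were all above the earlier ones, yet the log2 change of 0.14 at 24 h did not pass (adjusted p = 0.0995, edgeR). PIAS1, a SUMO ligase of transcription factors, had log2 changes of 0.006 and 0.08, and 30.6% of its exon bases are shared with CALML4 on the other strand.

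**Figure D3:**
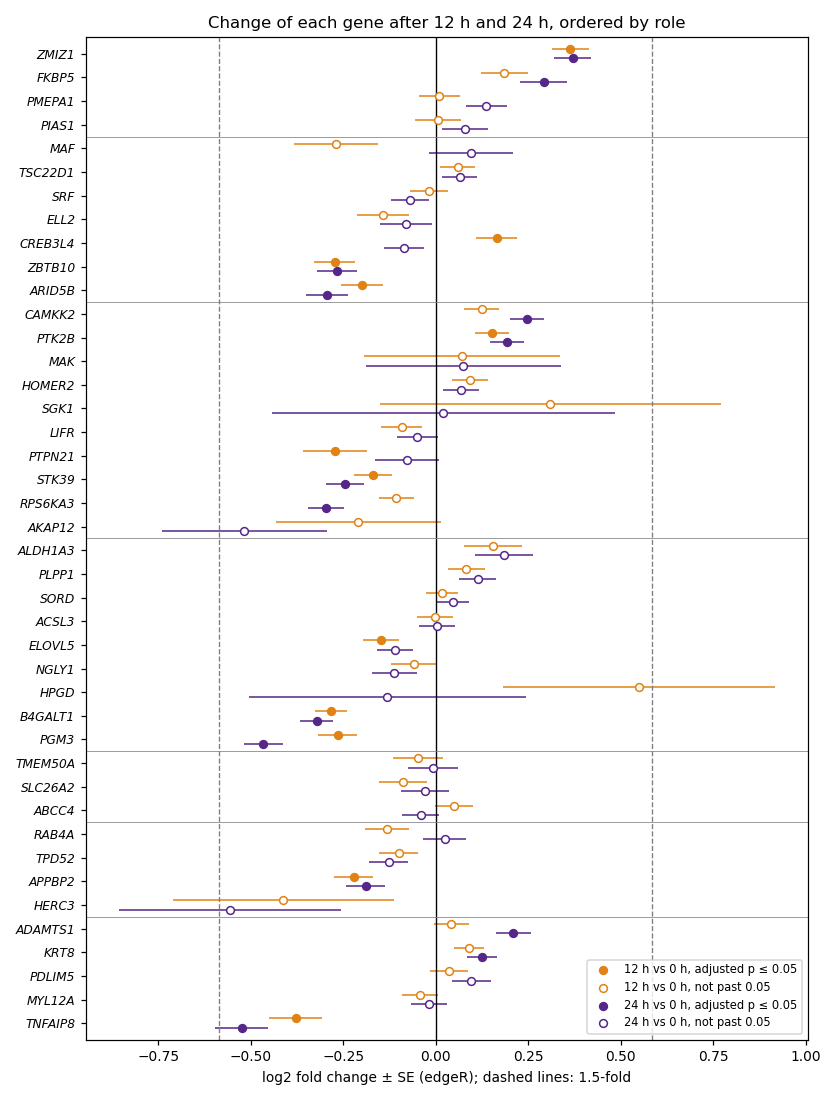
Log2 fold change against 0 h (x axis) of each tested member (y axis, in role groups) at 12 h (orange) and 24 h (purple), with bars of 1 SE from the edgeR fit. Filled points passed an adjusted p of 0.05, open points did not, and no filled point reaches the dashed lines at 1.5-fold.

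The 7 members that encode transcription factors or an elongation factor split by direction. At 12 h CREB3L4 rose and ARID5B and ZBTB10 fell, at 24 h ARID5B and ZBTB10 were lower, and between the times MAF rose and CREB3L4 fell. ARID5B (ENSG00000150347.17, chromosome 10, 61901684 to 62096944) encodes a DNA-binding protein that brings the demethylase PHF2 to its targets. Its levels were 53.5 and 49.6 CPM at 0 h, 44.0, 43.0 and 47.5 CPM at 12 h, and 42.6, 40.9 and 42.7 CPM at 24 h. No library with ASPN reached the 0 h level. The log2 change was -0.20 at 12 h (adjusted p = 0.0171, edgeR) and -0.29 at 24 h (adjusted p = 0.000303). With 0 h and 12 h fitted alone the 12 h call was lost (adjusted p = 0.0541). The 24 h call held in all 13 other settings, and the 12 h call was lost without 0 h replicate 1 (adjusted p = 0.337) and without 12 h replicate 2 (0.0585), with a range of 0.0122 to 0.337 over the settings.

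CREB3L4 (ENSG00000143578.16, chromosome 1, 153967534 to 153974361) encodes a membrane-anchored bZIP factor of the endoplasmic reticulum that is abundant in prostate. It was the one member to rise and then fall, at 57.4 and 60.5 CPM at 0 h, 71.0, 63.4 and 63.8 CPM at 12 h, and 56.4, 55.3 and 54.8 CPM at 24 h. The 3 groups did not overlap, with 12 h highest and 24 h lowest. From 12 h to 24 h the log2 change was -0.25 ± 0.0487 (adjusted p = 0.00248, edgeR), a call that held in all 13 other settings. The rise to 12 h (log2 0.17, adjusted p = 0.0461) rested on less, since it was lost without 0 h replicate 1 (0.415), without 12 h replicate 1 (0.170) and without any single 24 h library (0.0611 to 0.0713). Over the settings its adjusted p ran from 0.00797 to 0.415. The rise to 12 h was lost too with 0 h and 12 h fitted alone (adjusted p = 0.11, edgeR). CREB3L4 shares 9.65% of its exon bases with SLC39A1 and 3.20% with JTB, both on the other strand.

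ZBTB10, a zinc-finger repressor, was at 71.4 to 81.3 CPM at 0 h, 61.0 to 66.2 CPM at 12 h and 61.6 to 65.1 CPM at 24 h, with log2 changes of -0.27 at both times (adjusted p = 0.000914 and 0.000654, edgeR). Both calls were lost without 0 h replicate 1, which was its highest library (adjusted p = 0.146 and 0.0945, the largest over the settings, with 6.47e-05 and 4.29e-05 the smallest). MAF, a bZIP factor, was among the low members, at 5.69 and 5.96 CPM at 0 h, 4.82, 4.90 and 4.76 CPM at 12 h, and 6.36, 6.76 and 5.49 CPM at 24 h. The 12 h libraries were lowest and did not overlap the rest, and the log2 change from 12 h to 24 h was 0.36 ± 0.101 (adjusted p = 0.0442, edgeR). That call was lost without any single library of 12 h or 24 h except 24 h replicate 3 (0.0656 to 0.293), and without the unnumbered 0 h library (0.0501), with a range of 0.0335 to 0.293 over the settings. SRF (serum response factor), TSC22D1 (a leucine-zipper regulator) and ELL2 (an elongation factor of RNA polymerase II) passed no test, with log2 changes of -0.019, 0.059 and -0.14 at 12 h and -0.07, 0.065 and -0.079 at 24 h.

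Among 10 kinases, receptors and signalling scaffolds, PTK2B rose and STK39 and PTPN21 fell at 12 h, and CAMKK2 and PTK2B were higher and STK39 and RPS6KA3 lower at 24 h. RPS6KA3 (ENSG00000177189.14, chromosome X, 20149911 to 20267519) encodes RSK2, a kinase activated by ERK. Its levels were 93.3 and 89.2 CPM at 0 h, 83.1, 87.2 and 84.0 CPM at 12 h, and 73.9, 75.8 and 73.2 CPM at 24 h. The 3 groups did not overlap and went down in order of time. At 12 h the log2 change of -0.11 did not pass (adjusted p = 0.169, edgeR), and at 24 h it fell to 0.815 of the 0 h level (log2 -0.30 ± 0.0479, adjusted p = 2.65e-05). Between 12 h and 24 h it fell by 0.19 (adjusted p = 0.0103), a call lost without 24 h replicate 1 (0.0730) or 24 h replicate 3 (0.0850) with a range of 0.000395 to 0.0850 over the settings, whereas the 24 h call held in all 13 settings. Its promoter stretch with the hexamer is printed above, beside that of STK39.

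CAMKK2 (ENSG00000110931.19, chromosome 12, 121237675 to 121298308) encodes the calcium/calmodulin-dependent kinase that phosphorylates AMPK. It went the other way, at 115 and 122 CPM at 0 h, 129, 128 and 131 CPM at 12 h, and 142, 137 and 143 CPM at 24 h. Again the groups did not overlap. The log2 change of 0.12 at 12 h did not pass in edgeR (adjusted p = 0.0827) and passed in DESeq2 (adjusted p = 0.0279) and without the unnumbered 0 h library, with a range of 0.0245 to 0.566 over the settings. The log2 change of 0.12 from 12 h to 24 h did not pass (adjusted p = 0.114). At 24 h CAMKK2 rose 1.19-fold (log2 0.25 ± 0.0464, adjusted p = 0.000207, edgeR), a call that held in all 13 settings.

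PTK2B, the calcium-responsive tyrosine kinase PYK2, rose by log2 0.15 at 12 h (adjusted p = 0.0271, edgeR) and 0.19 at 24 h (adjusted p = 0.00309). Its levels were 89.3 to 91.9 CPM at 0 h, 100 to 101 CPM at 12 h and 102 to 104 CPM at 24 h, without overlap. With 0 h and 12 h fitted alone the 12 h call was lost (adjusted p = 0.0908, edgeR). Both calls were lost without 0 h replicate 1 (adjusted p = 0.253 and 0.0602), and the first also without 12 h replicate 3 (0.0601). Over the settings the adjusted p ran from 0.00258 to 0.253 at 12 h and from 5.71e-05 to 0.0602 at 24 h. STK39, the kinase SPAK that regulates chloride cotransporters, fell by log2 0.17 at 12 h (adjusted p = 0.0285) and 0.25 at 24 h (adjusted p = 0.000791). It was at 89.2 to 92.2 CPM at 0 h and 70.7 to 79.5 CPM at 24 h. With 0 h and 12 h fitted alone its 12 h call was lost (adjusted p = 0.0609, edgeR). The 24 h call held in all 13 settings, and the 12 h call was lost without either 0 h library (0.280 and 0.0508), without 12 h replicate 3 (0.0671) and without 24 h replicate 2 (0.0550), with a range of 0.00716 to 0.280 over the settings. PTPN21, a tyrosine phosphatase, was lower at 12 h alone (log2 -0.27, adjusted p = 0.0358), at 11.9 and 12.4 CPM at 0 h against 9.56 to 10.7 CPM at 12 h and 10.8 to 12.3 CPM at 24 h. This call was lost in 8 of 13 settings, with adjusted p from 0.0186 to 0.181, and without any of these libraries: both of 0 h, 12 h replicates 1 and 3, and 24 h replicates 2 and 3.

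AKAP12, a scaffold for protein kinase A, had one of the lowest fitted changes at 24 h and did not pass. It was at 36.3 and 42.0 CPM at 0 h, 37.5, 26.9 and 37.1 CPM at 12 h, and 26.7, 22.4 and 33.2 CPM at 24 h. The 24 h libraries were all below 0 h, and the log2 change of -0.52 carried an SE of 0.224 (adjusted p = 0.221, edgeR), the widest of the members with at least 100 counts in every library. HOMER2 (a synaptic-type scaffold) and LIFR (the receptor of leukaemia inhibitory factor) passed no test, with log2 changes of 0.093 and -0.092 at 12 h and 0.068 and -0.05 at 24 h. MAK, a kinase related to cyclin-dependent kinases, and SGK1, a kinase induced by steroids, lay at 0.699 to 1.65 CPM and 0.224 to 0.389 CPM, where the SEs of the log2 changes were 0.264 for MAK and 0.461 and 0.464 for SGK1 against 0 h, and no change passed.

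The 9 enzymes of lipid, sugar and glycan metabolism held 3 falls at 12 h (PGM3, B4GALT1 and ELOVL5) and 2 at 24 h (PGM3 and B4GALT1). PGM3 (ENSG00000013375.16, chromosome 6, 83161150 to 83193936) encodes the phosphoglucomutase on the route to UDP-N-acetylglucosamine. It was at 93.5 and 86.6 CPM at 0 h, 71.9, 76.9 and 76.0 CPM at 12 h, and 62.3, 65.2 and 68.1 CPM at 24 h. The 3 groups did not overlap, and each was below the one before it. PGM3 was the only member to pass in all 3 comparisons, with log2 changes of -0.27 at 12 h (adjusted p = 0.000654, edgeR), -0.47 ± 0.0519 at 24 h (adjusted p = 5.45e-08) and -0.20 between them (adjusted p = 0.0128). The 24 h call held in all 13 settings. The 12 h call was lost without 0 h replicate 1 (0.0612), and the call between the times without 12 h replicate 3 (0.0756), 24 h replicate 1 (0.141) or 24 h replicate 2 (0.0652). Over the settings the adjusted p ran from 7.96e-05 to 0.0612 for the first and from 0.00144 to 0.141 for the second. PGM3 shares 7.03% of its exon bases with DOP1A on the other strand.

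B4GALT1 (ENSG00000086062.13, chromosome 9, 33104082 to 33167356) encodes the Golgi galactosyltransferase that extends N-glycans. It was at 187 and 185 CPM at 0 h, 152, 154 and 152 CPM at 12 h, and 147, 153 and 147 CPM at 24 h. Both later groups lay well below 0 h and overlapped each other. The level fell to 0.822 of 0 h at 12 h (log2 -0.28 ± 0.0436, adjusted p = 3.03e-05, edgeR) and stood at 0.80 at 24 h (log2 -0.32, adjusted p = 1.74e-06), with no change that passed between the times (log2 -0.038, adjusted p = 0.744). Both calls held in all 13 settings. ELOVL5, the elongase of polyunsaturated fatty acids, was at 226 to 248 CPM at 0 h and 204 to 221 CPM at 12 h (log2 -0.15, adjusted p = 0.0421). That call was lost in 9 of 13 settings, with adjusted p from 0.000751 to 0.573, among them RLE scaling (0.0527) and leaving out 0 h replicate 1 (0.573), 12 h replicate 1 (0.140), 12 h replicate 3 (0.0868) or any 24 h library (0.0554 to 0.0866).

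ACSL3 (acyl-CoA synthetase), PLPP1 (lipid phosphatase), SORD (sorbitol dehydrogenase), ALDH1A3 (retinal dehydrogenase), NGLY1 (the cytosolic N-glycanase) and HPGD (prostaglandin dehydrogenase) passed no test. Their log2 changes at 24 h ran from -0.13 for HPGD to 0.18 for ALDH1A3. Without the unnumbered 0 h library PLPP1 passed as higher at 24 h (adjusted p = 0.0328, edgeR), and ELOVL5 as lower (adjusted p = 0.0349). HPGD was scarce, at 0.310 to 0.808 CPM. For SORD, reads may be split with its pseudogene SORD2P, which is 98.0% identical over 22.2% of the transcript and had 4509 counts against 195653 for SORD. A second SORD2P entry, a long noncoding RNA without counts here, is 98.9% identical over 48.2% of the transcript. PLPP1 shares 24.9% of its exon bases with MTREX and ALDH1A3 shares 32.1% with ALDH1A3-AS1, both on the other strand.

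Of the 4 transporters and membrane proteins, 3 were tested and none passed in edgeR or DESeq2 in any comparison, also with a p under 0.05 before adjustment (0 of 3 each time). ABCC4, the exporter MRP4, was at 156 and 151 CPM at 0 h, 146, 163 and 166 CPM at 12 h, and 144, 149 and 154 CPM at 24 h. Its groups overlapped throughout, and its log2 changes were 0.049 at 12 h and -0.041 at 24 h. The change of -0.09 between the times passed only without 12 h replicate 1 (adjusted p = 0.0287, and 0.0287 to 0.765 over the settings). SLC26A2, the sulfate transporter, was at 40.2 and 35.6 CPM at 0 h, 32.4, 36.5 and 38.0 CPM at 12 h, and 37.2, 36.5 and 37.7 CPM at 24 h. Here too the groups overlapped, with log2 changes of -0.089 and -0.03. TMEM50A, a small membrane protein, had log2 changes of -0.047 and -0.008. STEAP4, with 7 and 5 counts at 0 h, 0, 5 and 1 at 12 h and 2, 2 and 1 at 24 h, was too scarce to compare.

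Among the 4 members of vesicle traffic and ubiquitin transfer, 1 fell at 12 h and stayed lower at 24 h. APPBP2 (ENSG00000062725.10, chromosome 17, 60443158 to 60526242) encodes a substrate receptor of a cullin ubiquitin ligase. It was at 87.7 and 81.0 CPM at 0 h, 68.5, 75.2 and 73.2 CPM at 12 h, and 71.4, 76.8 and 73.9 CPM at 24 h. No library with ASPN reached the 0 h range. The log2 change was -0.22 at 12 h (adjusted p = 0.00426, edgeR) and -0.19 at 24 h (adjusted p = 0.0107), and neither passed without 0 h replicate 1 (0.193 and 0.234), nor the second without 24 h replicate 1 (0.0773). Over the settings the adjusted p ran from 0.000368 to 0.193 at 12 h and from 0.000721 to 0.234 at 24 h.

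RAB4A, a GTPase of recycling endosomes, shares 5.47% of its exon bases with RAB4A-AS1 on the other strand, which had 29422 counts in all. RAB4A was at 60.0 and 53.3 CPM at 0 h, 48.3, 54.1 and 52.8 CPM at 12 h, and 55.4, 60.1 and 57.4 CPM at 24 h. The 12 h libraries were the lowest group, with a log2 change of -0.13 against 0 h (adjusted p = 0.159, edgeR) and 0.16 from 12 h to 24 h (adjusted p = 0.119). The first of these passed without the unnumbered 0 h library (adjusted p = 0.0420, and 0.00336 to 0.851 over the settings). TPD52, a vesicle protein amplified in prostate cancer, had log2 changes of -0.10 at 12 h and -0.13 at 24 h, which passed only without the unnumbered 0 h library among the libraries left out (adjusted p = 0.0154 and 0.00363, edgeR). HERC3, a HECT-type ubiquitin ligase, was at 0.490 to 1.03 CPM, and its log2 changes of -0.41 and -0.56 carried SEs of 0.299 and 0.30. A second gene entry named HERC3 on the same strand, without counts here, shares 69.5% of its exon bases. How reads that match both entries were counted is not known.

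The 5 members of cytoskeleton, matrix and survival gave 1 fall at 12 h, and 2 rises and 1 fall at 24 h. TNFAIP8 (ENSG00000145779.8, chromosome 5, 119268692 to 119399688), the apoptosis inhibitor named above, was at 22.4 and 20.6 CPM at 0 h, 16.9, 15.7 and 17.1 CPM at 12 h, and 14.3, 15.4 and 15.2 CPM at 24 h. The groups did not overlap, and the 24 h libraries were lowest. It fell by 0.38 ± 0.0723 on the log2 scale at 12 h (adjusted p = 0.00048, edgeR) and by 0.53 ± 0.0724 at 24 h (adjusted p = 2.32e-06), and the further -0.15 between the times did not pass (adjusted p = 0.313). The 24 h call held in all 13 settings, and the 12 h call missed the threshold without 0 h replicate 1 (0.0501, and from 5.25e-05 up in the other settings).

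ADAMTS1 (ENSG00000154734.16, chromosome 21, 26835755 to 26845409) encodes a secreted metalloproteinase that cleaves proteoglycans. It was at 183 and 192 CPM at 0 h, 188, 184 and 206 CPM at 12 h, and 219, 215 and 216 CPM at 24 h. The 12 h libraries overlapped 0 h and the 24 h libraries lay above all others. It rose 1.16-fold by 24 h (log2 0.21 ± 0.0478, adjusted p = 0.00182, edgeR), most of it after 12 h (log2 0.17 from 12 h to 24 h, adjusted p = 0.0221). The first call was lost without 0 h replicate 1 (0.0780), and the second without any 24 h library (0.109 to 0.133), without 12 h replicate 1 (0.0511) or without 12 h replicate 2 (0.0858). Over the settings the adjusted p ran from 0.000174 to 0.0780 and from 0.00793 to 0.133.

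KRT8, the luminal keratin and the most abundant member per kilobase of exon (70.1 CPM per kb at 0 h), was at 478 and 488 CPM at 0 h, 498 to 522 CPM at 12 h and 521 to 530 CPM at 24 h. Its rise of 1.09-fold at 24 h (adjusted p = 0.0347, edgeR) was lost without 0 h replicate 1 (0.238) and without any 24 h library (0.0816 to 0.119), over a range of 0.00404 to 0.238, and 7.63% of its exon bases are shared with KRT18 on the other strand. MYL12A (myosin light chain) and PDLIM5 (a cytoskeletal adaptor) passed no test, with log2 changes of -0.018 and 0.096 at 24 h. MYL12A is 94.7% identical to MYL12B over 54.3% of its transcript, so reads may be split between them.

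**Figure D4:**
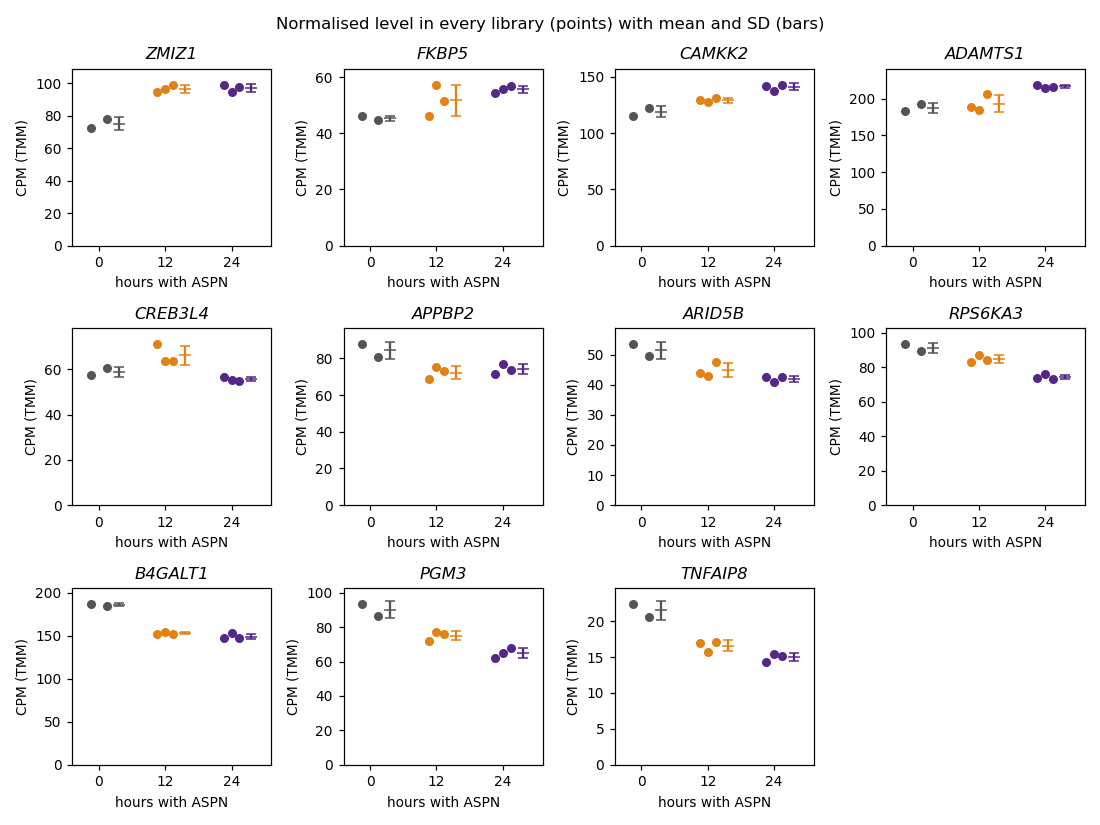
Level in CPM after TMM scaling (y axes, from 0) against hours with ASPN (x axes) for the 11 members that passed a test and had the lowest p in their role group, with 1 point per library and the mean ± SD of each group beside it (n = 2 at 0 h, 3 at 12 h and 3 at 24 h). B4GALT1 and ZMIZ1 reach their later level by 12 h, PGM3 and RPS6KA3 are lower at 24 h than at 12 h, and CREB3L4 is highest at 12 h.

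The 18 members that passed showed 9 different combinations of calls over the 3 comparisons. A total of 6 were lower at both times with no further change that passed (ARID5B, ZBTB10, STK39, B4GALT1, APPBP2 and TNFAIP8), and PGM3 went on falling. Only ZMIZ1 and PTK2B passed as higher at both times. FKBP5, CAMKK2, KRT8 and ADAMTS1 passed as higher at 24 h and not at 12 h, but of these a difference between 12 h and 24 h passed for ADAMTS1 alone. RPS6KA3 was the counterpart among the falls, lower at 24 h and lower than at 12 h. PTPN21 and ELOVL5 passed as lower at 12 h alone, CREB3L4 as higher at 12 h and lower from 12 h to 24 h, and MAF only as higher from 12 h to 24 h.

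Levels per kilobase of exon at 0 h spread widely among the members. The highest after KRT8 were ELOVL5 (62.1 CPM per kb), PLPP1 (40.6), B4GALT1 (38.0) and MYL12A (29.1), and the lowest were MAK (0.259), HERC3 (0.130), HPGD (0.0740), SGK1 (0.0266) and STEAP4 (0.00659). Among the 24 members that passed nowhere, 20 had at least 100 counts in every library, and their log2 changes ran from -0.21 to 0.16 at 12 h and from -0.52 (AKAP12) to 0.18 at 24 h.

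Another 58 androgen-responsive genes outside the list, kallikreins included, gave 15 rises and 14 falls at 12 h. They gave 10 and 18 at 24 h, and 1 and 11 between the times. In the 3 comparisons 50%, 48.3% and 20.7% of them passed. The shares were 28.6%, 33.3% and 11.9% of members of the list, and 11.6%, 16.3% and 2.72% of all genes tested. Among all genes with a mean of at least 1000 counts they were 21.8%, 28.3% and 5.16%. The median log2 changes of the 58 genes were 0.008, -0.081 and -0.049. At 24 h 2.45% of all genes tested passed both the adjusted p and 1.5-fold. No member of the list did, and whether the lists differ in this was not tested. Of the 58 genes 2 passed both, at 24 h. They were SEC24D, a coat protein of vesicles leaving the endoplasmic reticulum (log2 -0.96, adjusted p = 4.49e-14, edgeR), and DNAJB9, a chaperone of the endoplasmic reticulum (log2 -0.85, adjusted p = 1.18e-09). SEC24D went from 177 and 164 CPM at 0 h to 126, 120 and 125 CPM at 12 h and 81.3, 91.5 and 91.0 CPM at 24 h, the same stepwise order as PGM3 and RPS6KA3 but over a wider range.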

How the data were processed

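RNA was sequenced from 8 LNCaP libraries. The deposited values are raw counts per gene. Per the study's methods, the authors trimmed reads with Cutadapt, checked them with FastQC 0.11.9, aligned them to GRCh38.p13 with STAR, counted reads per GENCODE gene with featureCounts and dropped 1 time-0 replicate that failed quality control. Strand and multi-mapping options were not given in the sources used here, so overlapping or near-identical genes may share reads. The study names an earlier GENCODE release, whereas exon lengths and overlaps here came from GENCODE 44. Of the 36474 genes in the file, 30996 had the same versioned identifier in GENCODE 44, all with equal coordinates. The rest were not compared.

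Groups came from the labelled times. Of the time-0 columns, the second is numbered 3 whereas the labels stop at 2, so it entered as an unnumbered time-0 library. The labels call the replicates biological and the methods say that cells were plated in triplicate, so p-values measure the spread between such samples, which may be technical. Chi-square per degree of freedom was 5.32 to 15.2 in the 7 within-group pairs, so each library counted once. Counts were fitted for all 8 libraries in edgeR 4.0.16 (R 4.3.3) with TMM, filterByExpr and the robust quasi-likelihood F test, adjusted by Benjamini-Hochberg over 21071 genes (biological coefficient of variation 5.59%). SEs follow from the log2 change and F. The fit was tested on simulated counts with known changes. Alternatives were RLE scaling, no filter, DESeq2 1.42.0, the compared times alone, a replicate block, a 1.5-fold threshold and each library left out.

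By rule, values per library were given for the 2 members of each role group with the lowest p over the 3 comparisons, and log2 changes for other members that passed. Library values of PMEPA1, MAF and AKAP12 were added after their values were seen. Members and lists were chosen with earlier results of these data known. Of the gene lists, 1 gene is not reported here.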

Additional observations from a re-analysis of the deposited data

How the results depend on the processing

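No member changed sign among the calls, and the 13 settings other than the fold threshold kept 2 of 12 calls at 12 h, 8 of 14 at 24 h and 1 of 5 between the times throughout. Members higher at 12 h numbered 3, with 5 in DESeq2, 1 when the compared times were fitted alone and 1 to 4 with a library left out. Members lower at 12 h numbered 9, with 5 when the times were fitted alone and 1 to 9 with a library left out. Leaving out a library gave 3 to 7 higher and 6 to 10 lower at 24 h (6 and 8 with all libraries), and 0 to 2 higher and 1 to 4 lower between the times (2 and 3). The 12 h and 24 h minima came without 0 h replicate 1, which leaves 1 time-0 library that is assumed to vary like the other groups. Without it 15 calls of members were lost. With 1.5-fold required as well, each of the 6 counts was 0.

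Whether replicate numbers pair the samples could not be settled with so few libraries per group. Deviations from the group means of 12 h and 24 h libraries with the same number correlated at 0.106, 0.029 and 0.026. With different numbers they correlated at -0.083 to 0.056, and 12 h replicate 2 correlated best with 24 h replicate 3 (0.056). With a replicate block, 4 members were higher and 11 lower at 12 h, 5 and 11 at 24 h, and 3 and 4 between the times. The 24 h call of FKBP5 had an adjusted p of 0.12 with the block, and the 12 h call of PTPN21 one of 0.0762. With the block alone AKAP12 passed as lower at 24 h (adjusted p = 0.00697, and 0.0019 against 12 h), SLC26A2 as lower at 12 h (0.0414) and RAB4A as higher from 12 h to 24 h (0.0336). With the block the log2 change of TPD52 was -0.247 at 12 h and -0.274 at 24 h, beside -0.198 and -0.231 without the unnumbered time-0 library. At 12 h it was 0.172 and 0.18 in these fits for CAMKK2, and -0.292 and -0.203 for RAB4A. At 24 h it was -0.24 and -0.168 for ELOVL5. Both fits compare with 0 h replicate 1 alone, so their likeness is no separate check. The medians of the members were -0.111 at 12 h and -0.115 at 24 h with the block. The block puts the unnumbered time-0 library on its own, so every block comparison with 0 h rests on 0 h replicate 1 alone. Low counts limit MAK, SGK1, HPGD, HERC3 and STEAP4. Whether the overlapping second entry lowered the counts of HERC3 was not tested.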
